A study of Mus musculus with 12 samples.

Results

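Sox2 encodes the transcription factor that was pulled down in this study, and its own surroundings are described here. All deposited SOX2-bound regions with any base within 250 kb of the RefSeq span of Sox2 on mm10 (chromosome 3, 34649995 to 34652461, a span of 2467 bp) were taken. No mitotic region of 84 and 10 asynchronous regions of 10351 met this rule. The 2 lists come from ChIP-seq, the sequencing of DNA pulled down with an antibody to a chromatin protein, here SOX2. The cells were E14, an established mouse embryonic stem cell line. The 12 libraries form 4 groups of 3 replicates, namely mitotic ChIP, mitotic input, asynchronous ChIP and asynchronous input. Mitotic cells were held overnight in nocodazole, a microtubule poison, then fixed and sorted for phosphorylated histone H3, a mark of condensed chromosomes. Asynchronous cells had no such arrest. Both cultures contained 10% serum with leukemia inhibitory factor and a pair of kinase inhibitors, CHIR99021 against GSK3 (3 μM) and PD184352 against MEK (0.8 μM). Each list was called by the authors on the 3 pooled replicates of its condition, so no count or width below has a replicate error.

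SOX2 is a high mobility group factor that binds DNA together with OCT4 (Pou5f1) and holds embryonic stem cells in the pluripotent state. It is known to bind enhancers of its own gene. Background knowledge places one such enhancer directly downstream of the gene. A distal control region, a cluster of enhancers on which Sox2 transcription in mouse embryonic stem cells depends, lies roughly 100 kb downstream. Sox2 has a single exon and sits inside the span of the long non-coding RNA gene Sox2ot.

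The reference letters used here are those of promoter windows, 250 bases before to 50 after a gene start (RefSeq, GRCm38.p6). Those of Sox2 (chr3:34649745-34650044, + strand) and Gm38509 (chr3:34771825-34772124, + strand) are shown, since the widest region starts just past the first and the second is the only window of the table within the distal stretch. Capitals mark matches to the SOX words ACAAAG and ACAATG on either strand.
Sox2: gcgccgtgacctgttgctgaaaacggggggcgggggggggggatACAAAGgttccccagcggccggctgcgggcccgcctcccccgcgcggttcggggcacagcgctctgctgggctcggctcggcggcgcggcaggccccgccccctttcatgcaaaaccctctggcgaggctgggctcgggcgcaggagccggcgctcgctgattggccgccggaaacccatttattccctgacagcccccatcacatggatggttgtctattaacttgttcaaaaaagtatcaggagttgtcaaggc
Gm38509: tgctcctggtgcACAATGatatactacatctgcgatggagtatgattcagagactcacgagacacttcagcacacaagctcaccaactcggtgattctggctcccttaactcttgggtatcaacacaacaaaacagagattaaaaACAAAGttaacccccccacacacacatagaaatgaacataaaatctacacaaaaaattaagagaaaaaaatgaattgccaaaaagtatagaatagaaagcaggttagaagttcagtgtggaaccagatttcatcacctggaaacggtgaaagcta

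The Sox2 window held 1 match to ACAAAG, which began 206 bases before the start. The Gm38509 window held 1 match to ACAAAG, 105 bases before its start, and 1 to ACAATG, 238 bases before it. Among 32817 promoter windows of this length, 18.7% held ACAAAG or its reverse complement CTTTGT, and 12.6% held ACAATG or CATTGT. The shorter core ACAAT (reverse complement ATTGT), which is contained in ACAATG, was in 31.04% of them. In the Gm38509 window it matched within ACAATG, and the Sox2 window held no match. The octamer ATGCAAAT (reverse complement ATTTGCAT) was in 1.74% of all windows and in neither of these. The composite of the octamer with ACAAT at most 6 bases away was in 0.128% of windows and also in neither. A match describes letters and is not a binding site. Of the Sox2 window, 66.3% were G or C, and of the Gm38509 window 39.3%, against a median of 52.7%. None of the 8 promoter windows within 250 kb of Sox2 overlapped an asynchronous region, and of all 32817 windows 1.56% did. The last base of the Sox2 window lay 323 bp from the start of the nearest region.

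That region lay on the gene itself and was the widest of the whole asynchronous list. It ran from 34650367 to 34652427, so that it began 372 bp after the start of the span and ended 34 bp before its end. Its width of 2061 bp was 1.74 times that of the next widest region, 1186 bp. It covered 83.5% of the Sox2 span. No other protein-coding gene had as large a share of its span covered, and the next were the olfactory receptor genes Olfr13 (44.7% of 933 bp) and Olfr707 (29.5% of 924 bp). A median share of 0.524% was covered over the 3356 genes with any region on their span. Spans of all lengths enter this median, and a longer span gives a lower share for a given width. The region was listed 5 times, with the letters a to e that mark separate summits, or 1 summit for every 412 bp. No other region had more than 3 entries, and 171 of the 10351 (1.65%) had at least 2. The other 9 regions around Sox2 were listed once each, without a letter. The lists give no summit positions.

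Past the gene, 2 further regions lay within 50 kb, both inside the span of Sox2ot. The first, at 34653796 to 34654358, began 1.34 kb beyond the Sox2 span, with its midpoint 4.08 kb from the start of the gene. At 563 bp it stood at percentile 95.3 of the widths of the list. This is the side and neighbourhood of the known downstream enhancer, whose published boundaries were not compared. The next, at 34668444 to 34668757, was 15.98 kb beyond the span and 314 bp wide (percentile 57.8).

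The distal group began after a stretch of 76.5 kb with no listed region, an ordinary gap at percentile 39.99 of all gaps between neighbouring regions. It consisted of 5 regions, which lay 92.8, 104, 105, 109 and 134.5 kb beyond the end of the Sox2 span. Together they ran from 34745218 to 34787401, a stretch of 42.2 kb, and covered 1770 bp or 4.20% of it. This is the side and distance of the distal control region, whose published boundaries were not compared. The zone searched, 45 kb long and beginning 90 kb beyond the span, was set with these positions known, so the count is a description. The nearest regions on its inner and outer side lay 15.98 and 481 kb beyond the span. The outermost member ended 134.9 kb beyond the span, just inside the outer bound.

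Within the distal group, 3 regions stood close together. They were at 34756408 to 34756731 (324 bp), 34757917 to 34758186 (270 bp) and 34761146 to 34761657 (512 bp). Gaps of 1.19 and 2.96 kb separated them, at percentiles 2.33 and 4.33 of all gaps between neighbouring regions on a chromosome, whose median was 114 kb. Over their 5.25 kb, 21.1% of the bases were covered. The last of these was the widest distal region, at percentile 92.1 of the list, while the other pair stood at percentiles 60.9 and 43.1. The 2 outer regions were at 34745218 to 34745483 (266 bp, percentile 41.7) and 34787004 to 34787401 (398 bp, percentile 78.2), 10.9 and 25.3 kb from the middle ones. No distal region overlapped an annotated gene. The long non-coding RNA gene Gm38509 (34772075 to 34782346) lay between the fourth and the fifth.

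Before the gene the picture was different. Only 2 regions lay on that side within 250 kb, at 34482238 to 34482420 and 34508624 to 34508807, which is 168 and 141 kb from the span. Their widths of 183 and 184 bp were at or next to the smallest of the list (183 bp, shared by 460 regions), at percentiles 2.22 and 4.76. Both lay outside annotated genes. From the second of them to the region on Sox2, a gap of 142 kb held no listed region, at percentile 55.97 of all gaps and so of ordinary length. This gap takes in most of Sox2ot, with Gm42205 and the microRNA gene Mir1897 inside it. Peak names are numbered along the chromosome, and the members carry numbers between 9196 and 9207, but no entry is numbered 9198 or 9199. These numbers belong in that gap. The nearest listed regions outside the window carry numbers 9193 and 9209. The numbers between these and the members are not listed either, and whether they fall inside the window is unknown. Over the whole list 5239 of 15590 numbers (33.6%) are likewise not listed. An absence here therefore refers to listed regions only.

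**Figure D1:**
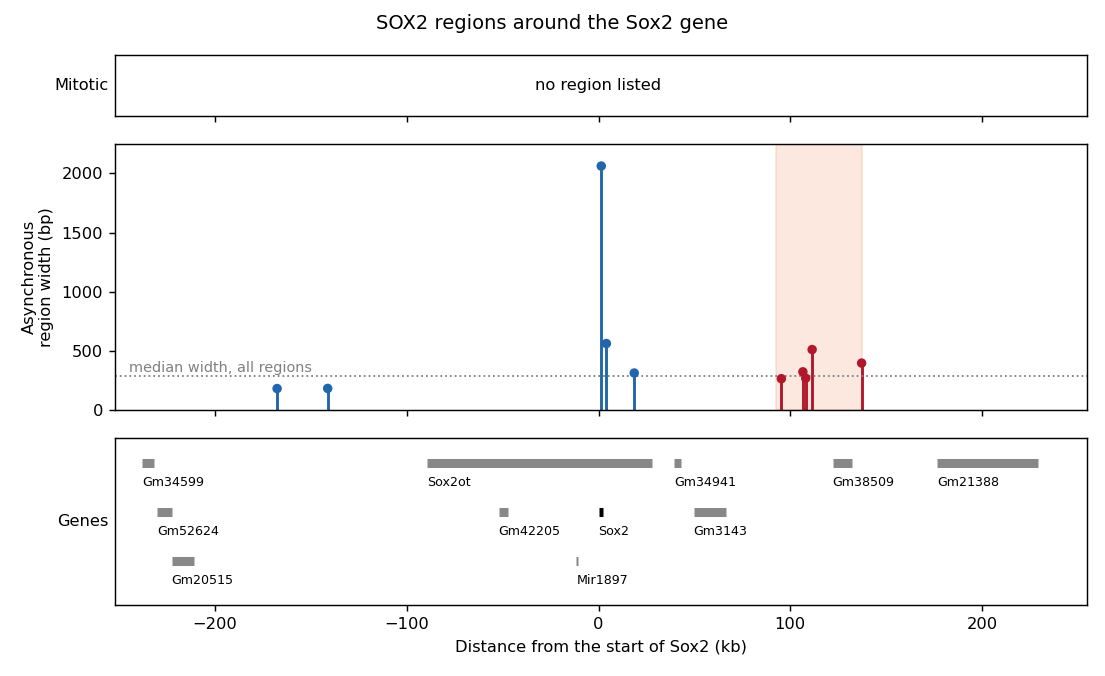
Regions within 250 kb of Sox2 by distance of their midpoint from the start of the gene (kb, + is after the start). The top track is mitotic and empty, the middle track gives each asynchronous region's width (bp, red for the 5 distal regions, shading for the 45 kb zone beginning 90 kb beyond the span, dotted line at the list's median of 289 bp), and the lower track shows gene spans (black for Sox2, grey for non-coding genes); 1 region stands at 2061 bp on the gene and 5 fall into the shaded stretch.

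Widths of the 10 regions had a median of 319 bp, against 289 bp (interquartile range 226 to 381 bp) in the whole list, and 6 of the 10 were wider than that median. The 4 at or above the upper quartile were the region on the gene, the one next to it and 2 of the distal regions. Width is no measure of binding strength and grows with sequencing depth, which is unknown. Covered bases summed to 5075 bp, or 1.01% of the window, and the region on the gene made up 40.6% of them.

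**Figure D2:**
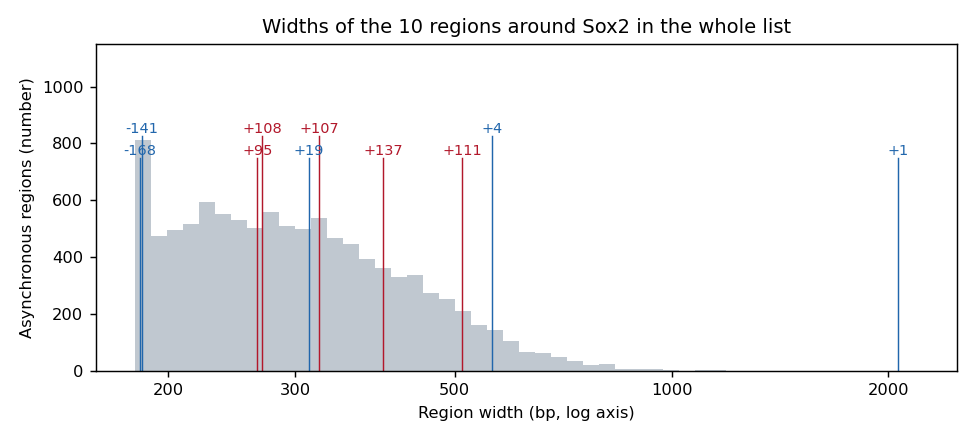
Histogram of the widths of all 10351 asynchronous regions (bp, log axis; vertical axis, number of regions), with a line for each of the 10 regions around Sox2, labelled by the distance of its midpoint from the gene start in kb (red, distal). The region on the gene, 2061 bp, stands apart from the rest of the list, the 2 before the gene lie at the lower edge, and the 5 distal ones lie between 266 and 512 bp.

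No mitotic region was listed around Sox2. The mitotic count was 0 of 84 (exact 95% upper limit 4.30%, and up to 3.57% by the limit of 3 counts), and the asynchronous count was 10 of 10351 (0.0966%, exact 95% interval 0.0463 to 0.178%). The shares did not pass a two-sided Fisher's exact test (p = 1). The asynchronous share predicts 0.0812 mitotic regions here, so a difference was not detectable with a mitotic list of this size. Intervals and limits cover counting error only. Per the deposited names the mitotic list also had the looser q-value threshold, 0.05 against 0.01. Within 250 kb, 2.96% of all 21887 protein-coding genes had a mitotic region. None of the 10 regions overlapped a mitotic region, which 9 asynchronous regions did in all. Chromosome 3 carried 3 mitotic regions. The nearest to Sox2, at 86910482 to 86910612, was 52.3 Mb away, against a median of 9.35 Mb from a gene to the nearest mitotic region over the 19960 genes whose chromosome has one.

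Sox2 stands alone in a wide stretch without other protein-coding genes. The nearest were Dnajc19, a mitochondrial import factor, 569 kb before it, and Atp11b, a phospholipid flippase, 1102 kb after it. Over these 1673 kb between them, 17 asynchronous regions were listed, of which 10 (58.8%) lay within 250 kb of Sox2. The other genes in the 502 kb window were 9 long non-coding RNA genes and Mir1897, and only Sox2ot among these overlapped a region. The nearest regions outside the window were 614 kb before the span and 481 kb after it. Region density in the window was 19.9 per Mb, against 3.23 per Mb on chromosome 3 and 4.17 per Mb on the autosomes. These ratios are 6.17 and 4.77.

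Counted the same way for every protein-coding gene, Sox2 with 10 regions stood at percentile 99.1, against a median of 2 regions per gene (interquartile range 1 to 4, highest 18). At least 1 region lay within 250 kb of 84% of genes, and at least 10 within 250 kb of 1.11%. More than 10 were found for 131 genes. By covered bases Sox2 ranked higher still, with 5075 bp, of which the region on the gene made up 2061 bp, against a median of 728 bp. The 4 genes with more were Msi2, an RNA-binding protein (6008 bp over 18 regions), Dlgap1, a postsynaptic scaffold (5815 bp over 16), Etl4 (5813 bp over 16) and Akap1, a kinase anchor (5177 bp over 15). Of these, Msi2, Dlgap1 and Etl4 have spans of 379, 852 and 900.3 kb, so that their windows are longer. Among 434 genes that, like Sox2, had no other protein-coding gene within 250 kb, the median count was 1. In that group 5 genes had more regions than Sox2. Among them were Sall1, a zinc finger transcription factor (14), Grik3, a glutamate receptor (13), Med13l, a Mediator subunit (12), and Rybp, a Polycomb subunit (11). Mycn, a Myc family factor, had the same number.

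Among transcription factor genes known to keep their coding sequence in 1 exon, as Sox2 does, Sox2 had the most regions within 250 kb. It did not hold that place alone with other window sizes or among wider regions only. Within 100 kb, 1 listed gene had more regions than the 4 of Sox2 and 2 had as many, and within 500 kb, 2 had more than its 11 and 3 as many. Among regions wider than the median of the list, 2 genes tied with Sox2 at 6. The list held 45 genes with a median of 3 regions within 250 kb (interquartile range 2 to 4), so that Sox2, with 10 within 250 kb, had 3.33 times the median. After it came Bhlhe23, a basic helix-loop-helix factor, with 9. Insm1, a zinc finger factor of neuroendocrine cells, and Neurog1, a neuronal determination factor, had 8 each. Neurog3, which specifies endocrine pancreas, and Sox1, a neural plate factor of the same SOX subgroup as Sox2, had 7 each, and Cebpa, a factor of myeloid and fat cells, had 6. The count of 10 has an exact Poisson 95% interval of 4.80 to 18.4, within which 8 of the other listed genes fall. This interval treats regions as independent and leaves out the error of the other counts. Neither the order among these genes nor a separation from the rest is read from it. Per 100 kb of window Sox2 had 1.99 regions, against a median of 0.596 in the list and 0.397 over all protein-coding genes.

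Of the 45 genes, 40 (88.9%) had at least 1 region, close to the 84% of all genes. Among the 5 without one were Foxc1, a mesenchymal forkhead factor, Msgn1, of presomitic mesoderm, Pou3f4 and Sox3. Pou3f4 and Sox3, a SOX gene of the same subgroup as Sox2, are on the X chromosome, and counts were not corrected for the number of copies per cell. Sox2 alone reached 10 (2.22% of the list, against 1.11% of all genes). Among the genes of the list with no other protein-coding gene in their window, Sox2 had 10 regions and Sox11, a neuronal SOX gene, had 5, and Pou3f4 and Sox3 had none. A mitotic region was near 1 of the 45 genes, the forkhead gene Foxb1 (2.22%, near the background share of 2.96%). In all, 3 close pairs of the list share part of their windows (Foxc2 with Foxl1, Foxd2 with Foxe3, Foxc1 with Foxq1).

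**Figure D3:**
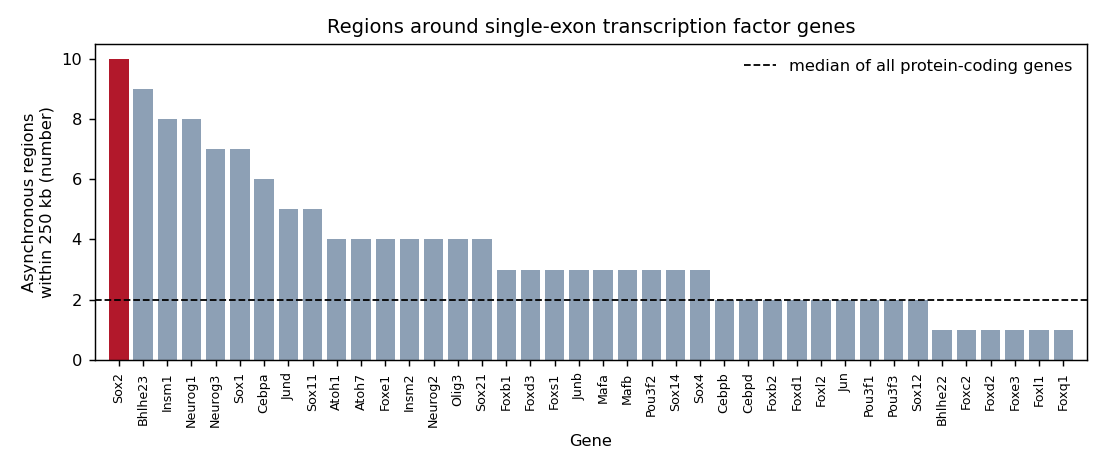
Number of asynchronous regions within 250 kb of each of the 40 single-exon transcription factor genes with at least 1 region, in falling order, with Sox2 in red at 10 and the median of all protein-coding genes (2) as a dashed line. Bhlhe23 follows at 9.

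The list was also set against Sox2 in where the regions lay. A region on the gene span was found for Sox2 and 3 other genes of the list (4 of 45, 8.89%), against 15.3% of all protein-coding genes. The others were Neurog1, with 8.98% of its span covered, Foxe1, a thyroid factor (8.59%), and Insm1 (5.95%), all far below the 83.5% of Sox2. Spans in the list ran from 567 bp (Msgn1) to 8451 bp (Sox11). A longer span has more room for a region, and the shares of genes with a region on the span were not corrected for this. Covered bases within 250 kb were 5075 bp for Sox2, 2999 bp for Bhlhe23, the next highest, and 956 bp at the median of the list. Of the 5075 bp around Sox2, 2061 bp were in the region on the gene. In the 45 kb zone beginning 90 kb from either end, Sox2 had 5 regions after and none before the span. On a single side, the highest of the others was Neurog3 with 4 before the span. Sox1 had 1 before and 3 after, and 30 of the 45 genes had none on either side. Over all protein-coding genes, 0.064% had 5 or more regions in such a zone. The zone was chosen for where the Sox2 regions lie, so nothing is read from this share. The 14 genes counted were Sox2 and 13 others on 5 other chromosomes, among them neighbours that share the same regions, such as Usf1 and Tstd1.

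Stretches as dense as the distal group (5 regions within 42.2 kb) occurred 22 times in the asynchronous list and held 123 regions, 1.19% of the list. Of these stretches, 13 overlapped a protein-coding gene, among them Esrrb, an orphan nuclear receptor of the pluripotency network, and Pou5f1. Most of the 13 were at genes outside the pluripotency list used below, such as Tns3, Myo10 and Znrf1. The Sox2 stretch lay 92.8 kb from its nearest protein-coding gene. Only the stretch nearest to Tmem132c, at 472 kb, was further from one, and that nearest to Spaca7 followed at 68.5 kb. The density cut was taken from the distal group, which was itself picked at 90 kb or more beyond Sox2. The place of the Sox2 stretch among these distances was thus set by the choice, and nothing is read from it.

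Genes of the pluripotency network gave a nearer comparison. Over 24 listed genes the median was 5.5 regions within 250 kb (interquartile range 4 to 7), against 2 for all protein-coding genes, and 23 of 24 (95.8%) had at least 1, against 84%. Sox2 and Mycn shared the highest count, 10. Esrrb had 9, Utf1, a chromatin-associated factor of stem cells, had 8, and Pou5f1, Nanog, Dppa3, a maternal factor, and Nr5a2, an orphan nuclear receptor, had 7 each. Nanog and Dppa3 are neighbours and share regions. The lowest counts were those of Stat3, which acts downstream of leukemia inhibitory factor, with none, of Tdgf1, a Nodal coreceptor, and Zfp42 with 1 each, and of Nr0b1 and Tbx3 with 2 each. A region on the span was found for Sox2 and 12 others (13 of 24, 54.2%, against 15.3% of all protein-coding genes), of which Pou5f1 had the largest share covered, 11.5%. These shares too were not corrected for span length. In the distal zone, which was placed where the Sox2 regions lie, the 23 others had at most 2 regions on any 1 side, and nothing is read from the difference. No gene of this list had a mitotic region within 250 kb, where the 2.96% of all protein-coding genes predicts 0.711 of 24, so nothing is read from this count of 0. The lists hold no expression values, so marker levels of the cells could not be checked.

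The arrangement over 10 bins of 50 kb, 5 on each side of the span by coordinate, was compared between Sox2 and 18380 other genes with at least 1 region. Sox2 had 1 region in each of 2 bins before the gene, 2 in the first bin after it, 1 in the second and 4 in the third. The most alike by Euclidean distance were Dbil5, Gemin4, a subunit of the SMN complex, Trappc10, a vesicle tethering subunit, and Rassf2, a Ras-association domain protein, each at a distance of 1.73, and Etnk2, an ethanolamine kinase, at 2. Dbil5 and Gemin4 are neighbours with the same regions. Dbil5, Gemin4 and Trappc10 also had 4 regions in the third bin after the span, and Rassf2 and Etnk2 had 3. In all, 12 genes were at a distance of 2 or less, with ties ordered by covered bases. Regions on the gene span are not part of these bins.

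**Figure D4:**
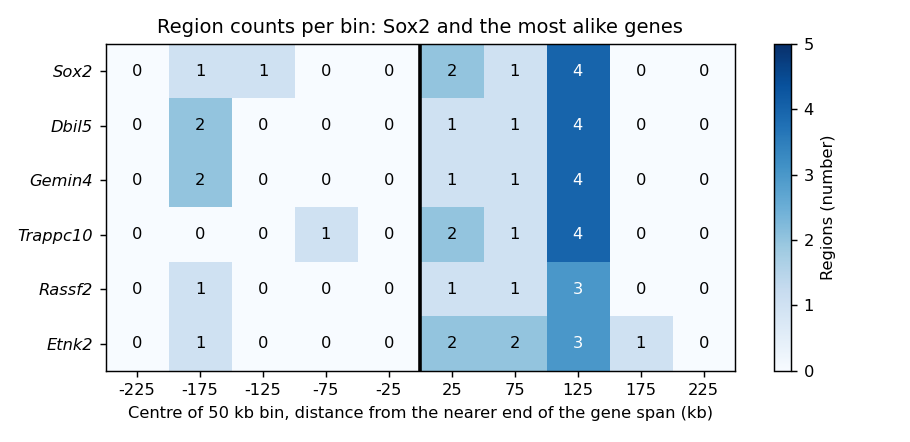
Number of asynchronous regions (colour and digit) in each of 10 bins of 50 kb, for Sox2 in the top row and the 5 genes with the most alike counts below it; the horizontal axis is the centre of the bin in kb from the nearer end of the gene span, negative before the span by coordinate. All 6 genes have 3 or 4 regions in the bin 100 to 150 kb after the span.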

How the data were processed

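SOX2 ChIP and input DNA were sequenced from mitotic and asynchronous E14 cells, 3 replicates per group. The submitters' processing notes name Bowtie2 (2.2.1), MACS2 without a version, and mm10. Per the deposited names, the authors called peaks of ChIP against input on pooled replicates and removed blacklisted regions, at q-value tags read as 0.05 (mitotic) and 0.01 (asynchronous). The deposited values are start and end positions in bp and a name, with no score, fold or count, so depth is unknown.

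Starts were converted to positions counted from 1, and 10532 asynchronous entries were merged by identical coordinates into 10351 regions. Genes came from RefSeq GRCm38.p6 (the assembly of mm10), which gives spans but no exons, so single-exon genes were listed from background knowledge. A region counts when any base lies in the window. Distances run from the span to the nearest base. Percentiles place ties at the middle of their ranks. The shares of the lists were compared by Fisher's exact test (scipy 1.17.1, threshold 0.05). Genes were named by rule: genes in the window, list members with the most (6) or fewest regions or a mitotic region, and the 5 most alike genes. Olfr13, Olfr707, the 4 genes with more covered bases, the genes alone in their window, the genes nearest to dense stretches, Usf1, Tstd1, Foxe1 and Sox11 were chosen after their values were seen. Some genes that these choices select are not reported here. The members and lists were chosen with earlier results of these data known.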

Additional observations from a re-analysis of the deposited data

How the results depend on the processing

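Of 53 recomputed values over 10 results and 11 alternatives, 41 stayed within 1.5 times (counts and lengths) or within the 95% interval (percentiles) of the value reported, or on the same side of the test. The 41 include the mitotic counts, the mitotic overlap and the comparisons of shares. These had no room to move, so the tally says nothing about their stability. The interval of a percentile narrows with the number of genes, so the tally is uneven there too. Percentile 91.1 among the 45 listed genes stayed within the interval of 98.9. Percentile 99.3 among 21887 protein-coding genes fell outside that of 99.1. With a window of 100 kb, Sox2 had 4 asynchronous regions covering 3204 bp and stood at percentile 94.1 of all protein-coding genes, since 4 distal regions and both regions before the gene then lie outside. With 500 kb it stood at percentile 93.9. Its percentile was 99.9 with each summit entry counted, 99.3 with regions at most 1 kb apart joined and 99.7 per 100 kb of window. Among regions wider than the median of their list, 6 remained around Sox2 (percentile 99.004), 3 of them distal. Stretches as dense as the distal group were opened by 34 regions, by 91 in that stricter list, where the distal group itself has 3 regions, and by 17 after joining. Among the single-exon transcription factor genes the percentile was 98.9, and 91.1 to 98.9 over its alternatives. The mitotic count was 0 in every setting run, and with the nearest mitotic region 52.3 Mb away no setting could have changed it. No paired analysis was possible because each condition has 1 list made from pooled replicates, and for the same reason no replicate could be left out. Depth limits which regions were called and how wide they are, and it is unknown here.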
